A study of Mus musculus with 21 samples.

Results

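The 10 genes described here are the transcription factor gene Nfe2l2, its inhibitor Keap1 and 8 antioxidant genes that NRF2, the product of Nfe2l2, is known to control: Hmox1, Nqo1, Gclm, Gclc, Slc7a11, Txnrd1, Srxn1 and Gsr. They were chosen by symbol, and each was found once among the 23250 genes of the deposited table. All 10 passed the filter on low counts that left 13468 genes for testing. Their levels were read in RNA-seq libraries of mouse bone-marrow-derived macrophages.

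The question of the series was what the soluble mannose receptor does to macrophages without that receptor. Marrow from C57BL/6J mice was grown for 7 days with the supernatant of cells that secrete GM-CSF, a cytokine under which precursors in marrow become macrophages and related cells. According to the series text the macrophages of the study lack the receptor, and the labels name neither the allele nor the age, sex or number of the mice. The 7 groups held 3 libraries each: untreated cells at 0 h, cells given FcMR for 4, 12 or 24 h, and cells given an isotype control for 4, 12 or 24 h. FcMR joins the outer part of the mannose receptor to the Fc part of human IgG1. No untreated library was taken at 4, 12 or 24 h. Nothing in the labels says that libraries of a group came from separate cultures or mice, so the p-values measure the spread between these libraries only.

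Under resting conditions KEAP1 binds NRF2 and directs it to degradation by the proteasome. Oxidants and reactive chemicals modify KEAP1, NRF2 then accumulates, pairs with a small MAF protein and binds antioxidant response elements near its target genes. BACH1 competes for the same elements as a repressor. In macrophages this programme is known for haem breakdown, glutathione synthesis and the restraint of inflammatory damage. Since NRF2 is controlled mainly as a protein, the mRNA of Nfe2l2 need not follow its activity.

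Promoter sequence is shown for 3 of the genes whose upstream windows held a copy of a short element known from stress-response promoters. Windows of Nfe2l2 and Txnrd1 also held one and are not shown. The windows come from RefSeq (GRCm38.p6) and run from 250 bases before to 50 bases after a transcript start. The table gave 9 windows for 7 of the 10 genes (Nfe2l2, Keap1, Nqo1, Gclm, Slc7a11, Txnrd1 and Srxn1). Both strands were searched for TGACNNNGC (the core of the antioxidant response element), TGANTCA (an AP-1 type element, which can overlap the first) and TGATGNAA (an element of the kind ATF4 binds with C/EBP partners). Capitals mark the matches, and each sequence is written 5′ to 3′ on the strand of its gene.
Slc7a11, chr3:50443614-50443713, minus strand: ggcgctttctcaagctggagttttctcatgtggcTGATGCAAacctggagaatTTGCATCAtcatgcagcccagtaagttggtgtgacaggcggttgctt
Srxn1, chr2:152105404-152105523, plus strand: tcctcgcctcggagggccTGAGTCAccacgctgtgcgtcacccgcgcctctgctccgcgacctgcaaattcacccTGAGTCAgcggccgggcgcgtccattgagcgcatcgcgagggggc
Gclm, chr3:122245407-122245556, plus strand: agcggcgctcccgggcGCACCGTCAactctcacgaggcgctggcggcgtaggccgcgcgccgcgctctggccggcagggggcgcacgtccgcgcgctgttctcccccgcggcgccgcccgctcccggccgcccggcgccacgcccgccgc

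The Slc7a11 window held TGATGNAA 2 times, at 66 and 47 bases before the start and on opposite strands. That element was in 3.97% of all 32851 windows of this length and in no other window of the 10 genes. The Srxn1 window held TGANTCA 2 times, 102 and 45 bases before the start, and 7.81% of all windows held it. TGACNNNGC was in 4 of the 9 windows, those of Gclm (134 bases before the start), Nfe2l2 (240 before), Srxn1 (28 bases after) and one Txnrd1 start (92 before), against 12.4% of all windows. These are matches of letters in short windows, not sites shown to be bound.

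The deposited counts summed to between 5532225 and 66729533 per library, so that 3 counts corresponded to between 0.0454 and 0.559 CPM. CPM is the usual unit of counts relative to the library total, here after TMM scaling. The least abundant reading of any of the 10 genes was 149 counts (Keap1, isotype 4 h), so none of them was near that limit. Mrc1, the gene of the missing receptor, had 0 to 11 counts per library. All 8 macrophage markers had counts in at least 1 library of every group, with a summed level of 20540 to 35370 CPM. So had all 9 dendritic cell markers, at 2042 to 3812 CPM. The same held for the 4 mast cell markers in the table. It also held for the 10 neutrophil and 6 lymphocyte markers in every group but FcMR 24 h, so presence alone does not tell cell types apart. Summed erythroid markers reached 35.7 CPM at most and lymphocyte markers 6.58 CPM. The summed neutrophil markers were at 1412 to 1641 CPM in untreated cells and, at 24 h, at 186 to 221 CPM with isotype and 206 to 230 CPM with FcMR. Libraries of a group also differed in how strongly GC-rich genes were represented, measured as a GC tilt. For this, log2 levels relative to all libraries were averaged over the GC-richest 10% of genes, and the average over the GC-poorest 10% was subtracted. It ran from −1.62 to 0.841 and differed between runs of the library numbers in the titles. It was −1.62 to −0.163 in numbers 3350 to 3355 and 0.601 to 0.841 in 3356 to 3361. In 3347 to 3349 it was 0.0382 to 0.806 and in 3362 to 3367 −1.33 to 0.412. Keap1 was at 26.9 to 67.6 CPM in 3350 to 3355 and at 62 to 98.2 CPM in 3356 to 3361. In 3347 to 3349 it was at 28 to 36.8 CPM and in 3362 to 3367 at 24.6 to 48.5 CPM. In FcMR 12 h replicate 1 and isotype 4 h replicate 3, whose library numbers stand in each other's place in the order of groups, the tilt was −0.743 and 0.636. The other libraries of these groups had 0.74 and 0.824, and −0.84 and −1.62.

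**Figure D1:**
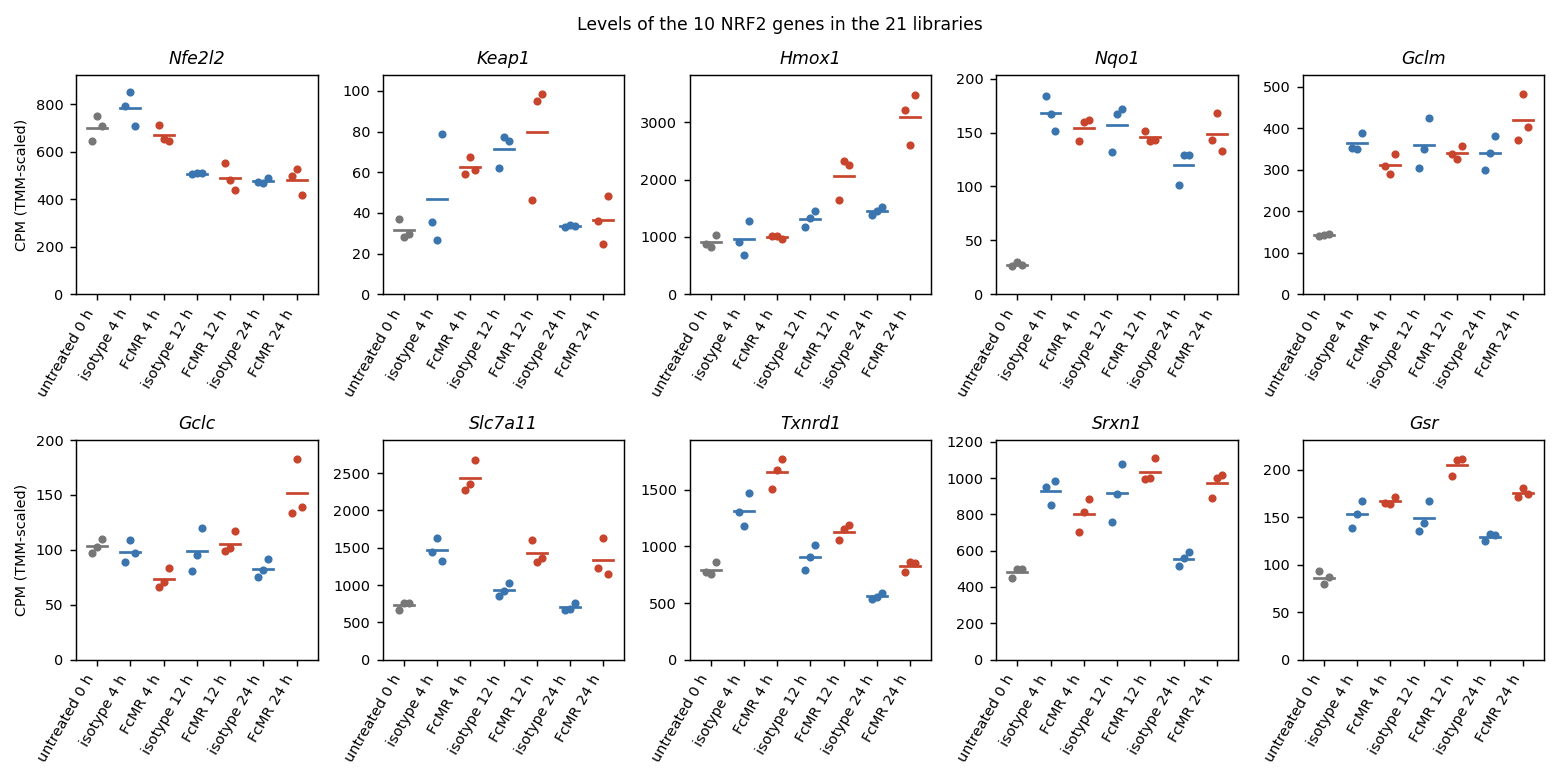
Level of each gene (CPM after TMM scaling, linear axes from 0) in the 21 libraries. Points are libraries, bars are group means of 3, and colours separate untreated (grey), isotype (blue) and FcMR (red). Hmox1 is highest in the FcMR libraries of 24 h (2599 to 3479 CPM), and Nqo1 is at 25.9 to 29.5 CPM in untreated cells and above 100 CPM in all treated libraries.

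FcMR was compared with the isotype control at each time, the control for the protein and for time in culture. At 24 h, 6 of the 10 genes were higher with FcMR and none was lower: Hmox1, Slc7a11, Gclc, Srxn1, Txnrd1 and Gsr. At 12 h 4 were higher (Hmox1, Slc7a11, Gsr and Txnrd1), and at 4 h 2 (Slc7a11 and Txnrd1). Slc7a11 and Txnrd1 passed the test at all 3 times. A gene counts as passing when its edgeR quasi-likelihood p, adjusted over the 13468 genes by Benjamini-Hochberg, is under 0.05. In bulk RNA a change in the share of a cell type and a change in RNA per cell cannot be told apart.

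Of all genes tested, 17.7% passed at 4 h (8.62% higher, 9.13% lower), 16.1% at 12 h (8.61% higher, 7.49% lower) and 20.9% at 24 h (11.4% higher, 9.44% lower). The split of the 4 h calls, 1161 higher and 1229 lower, depended on scaling and was 1412 and 839 with RLE factors and 1239 and 608 with the authors' factors. The median of the 10 log2 fold changes was −0.026, 0.168 and 0.505 at the 3 times, beside −0.073, −0.017 and 0.0064 over all genes tested. None of the 10 was called lower at any of the times by edgeR as fitted here, by DESeq2 or by limma with voom weights. At an unadjusted p under 0.05, 2 were lower at 4 h and none later. At 4 h other edgeR settings did call members lower, 1 with GC correction (Nfe2l2) and 1 without the 2 libraries out of order (Nfe2l2). A replicate block in the fit called 1 lower (Gclc), and GC correction with that block called 3 lower (Nfe2l2, Gclc and Srxn1). Libraries of FcMR and isotype did not overlap for 7 genes at 24 h, all higher, where 17.8% of all genes were higher and 16.6% lower without overlap. At 12 h this held for 4, all higher (17.5% of all genes higher, 17.9% lower). At 4 h it held for 2 higher and 2 lower, where 13.5% of all genes were higher and 16.2% lower.

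**Figure D2:**
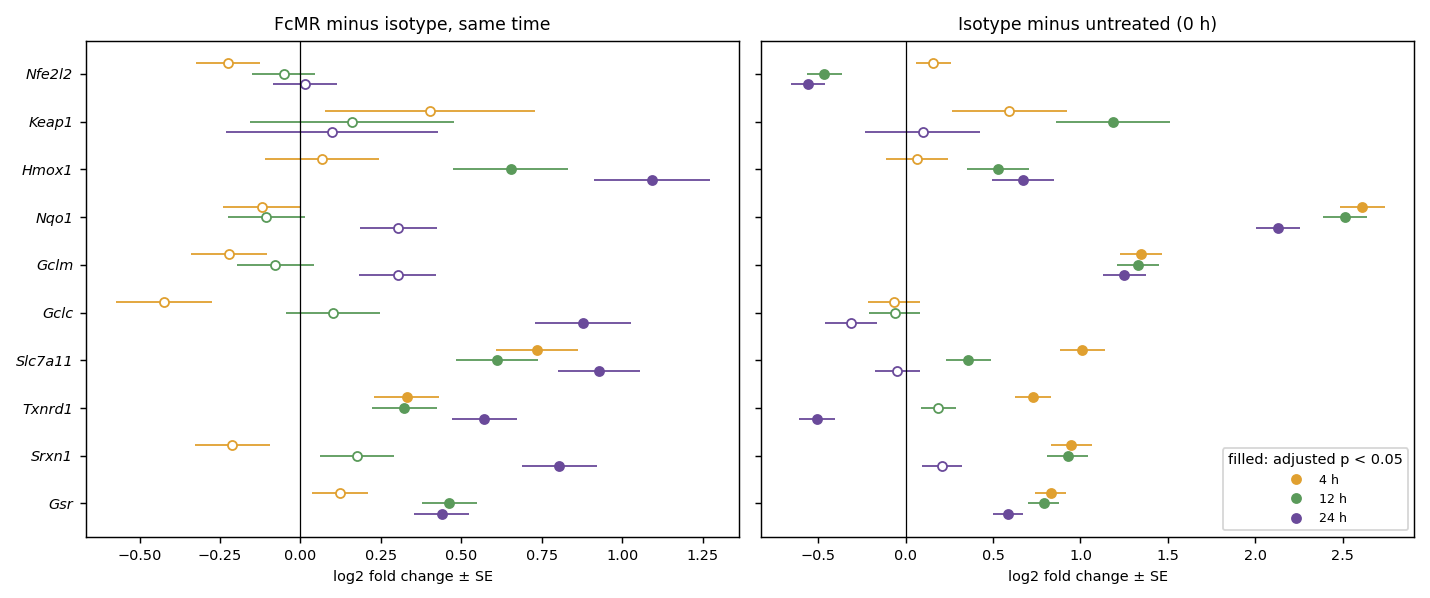
Log2 fold change with its standard error for each gene, FcMR minus isotype at the same time on the left and isotype minus untreated cells on the right, at 4, 12 and 24 h. Filled points have an edgeR adjusted p under 0.05. On the left the 24 h points lie at or above 0.01 for all 10 genes, and on the right Nqo1 stands at 2.13 to 2.61.

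The regulators Nfe2l2 and Keap1 did not pass the test of FcMR against isotype at any time, though both passed at 4 h under some alternatives. Nfe2l2 (ENSMUSG00000015839.6, GRCm38 chromosome 2, 75675513 to 75704641, minus strand) ran from 417 to 852 CPM over the 21 libraries. By edgeR its log2 fold changes at the 3 times were −0.23 (SE 0.099, adjusted p = 0.131), −0.05 (adjusted p = 0.821) and 0.01 (adjusted p = 0.956). The 4 h value was −0.16 after GC correction (edgeR adjusted p = 0.0403) and −0.29 without the 2 libraries out of order (adjusted p = 0.0307). Group means were 784 ± 72.6 CPM (SD, n = 3) in isotype 4 h, 702 ± 52.4 in untreated cells and 670 ± 36.6 in FcMR 4 h, and between 477 and 509 CPM in the 4 groups of 12 and 24 h. The early and late groups did not overlap, whereas neighbours within each set did.

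Keap1 (ENSMUSG00000003308.15, chromosome 9, 21229730 to 21239361, minus strand) had the least mRNA per transcript length of the 10 genes, 8.72 CPM per kb in untreated cells. In isotype 4 h its libraries held 35.6, 26.9 and 78.6 CPM, and in FcMR 4 h 59.1, 67.6 and 61.1. At 12 h they held 62, 77.3 and 75.1 CPM with isotype and 46.3, 94.8 and 98.2 with FcMR. The odd values are those of isotype 4 h replicate 3 and FcMR 12 h replicate 1, the libraries out of order. The edgeR log2 fold change of 0.4 at 4 h (SE 0.326, adjusted p = 0.452) was 1 without isotype 4 h replicate 3 (adjusted p = 0.0206). After GC correction it was 0.38 at 4 h and 0.32 at 12 h, and both passed (edgeR adjusted p = 0.0146 and 0.0307). The Keap1 transcript has 58% GC, above the 57.7% that marks the 10% of genes richest in GC.

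**Figure D3:**
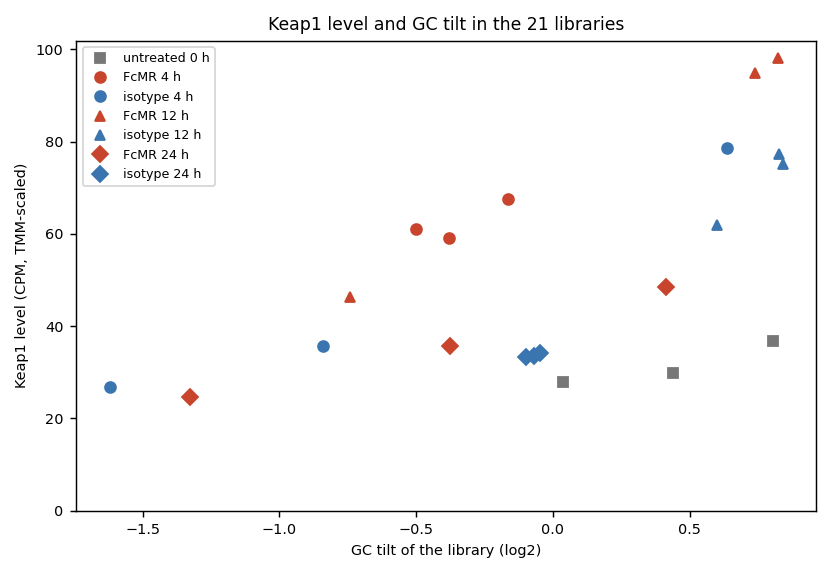
Keap1 level (CPM) against the GC tilt of the library (log2), 1 point per library, with colour for treatment and shape for time. Within isotype 4 h, FcMR 12 h and FcMR 24 h the library with the highest Keap1 level also has the highest tilt, and the isotype libraries of 24 h lie together at 33.3 to 34.1 CPM.

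Hmox1 encodes the inducible haem oxygenase, which splits haem into biliverdin, iron and carbon monoxide (ENSMUSG00000005413.8, chromosome 8, 75093621 to 75100589, plus strand). Untreated libraries held 877, 827 and 1036 CPM. At 4 h the isotype libraries were at 910, 687 and 1271 CPM and the FcMR libraries at 1016, 1024 and 967, within the isotype range. The value of 1271 is that of isotype 4 h replicate 3, a library out of order. The other isotype libraries of 4 h lay below all FcMR libraries of that time. At 12 h isotype libraries held 1173, 1331 and 1445 CPM and FcMR libraries 1640, 2324 and 2249. The value of 1640 is that of replicate 1, also out of order. At 24 h the isotype libraries were at 1387, 1455 and 1522 CPM and the FcMR libraries at 3220, 2599 and 3479. Every FcMR library was above every isotype library at 12 and 24 h. Within isotype 4 h, isotype 12 h, FcMR 4 h and FcMR 24 h the libraries had the same order by Hmox1 level as by GC tilt. In the other groups they did not. The cause of this order was not tested.

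For Hmox1 the log2 fold change by edgeR was 0.07 (SE 0.178, adjusted p = 0.854) at 4 h, 0.65 (SE 0.178, adjusted p = 0.0161) at 12 h and 1.09 (SE 0.18, adjusted p = 0.000208) at 24 h. The 4 h value passed in none of its 17 alternatives, where it ran from −0.08 to 0.33. The 24 h value is 2.13-fold and passed in all 17 alternatives run for it, with a range of 1.01 to 1.21. The 12 h call was lost without FcMR 12 h replicate 2 (0.56), FcMR 12 h replicate 3 (0.59) or isotype 12 h replicate 1 (0.57), at edgeR adjusted p-values of 0.0644, 0.0542 and 0.0737. Per transcript length Hmox1 was the most abundant of the 10 in every group, from 582 CPM per kb in untreated cells to 1975 in FcMR 24 h. In the order of group means, FcMR 24 h and FcMR 12 h each stood apart from the group below. Isotype 24 h overlapped with isotype 12 h, and FcMR 4 h, isotype 4 h and untreated cells overlapped in turn.

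Nqo1 encodes a quinone reductase that uses NADPH or NADH (ENSMUSG00000003849.8, chromosome 8, 107388225 to 107403206, minus strand). It had the widest range relative to its own level, because untreated libraries held 25.9, 29.5 and 26.8 CPM and isotype 4 h libraries 184, 168 and 152. FcMR 4 h libraries held 142, 160 and 162 CPM. At 24 h the isotype libraries were at 101, 129 and 130 CPM and the FcMR libraries at 144, 168 and 133, with no overlap but a narrow gap. The FcMR effect did not pass by edgeR at 4 h (−0.12, SE 0.12, adjusted p = 0.563), 12 h (−0.11, SE 0.119, adjusted p = 0.665) or 24 h (0.3, SE 0.12, adjusted p = 0.0861). Without FcMR 24 h replicate 3 the last value was 0.38 and passed (edgeR adjusted p = 0.048).

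Slc7a11 encodes the light chain of the antiporter that imports cystine, the source of cysteine for glutathione (ENSMUSG00000027737.10, chromosome 3, 49892526 to 50443614, minus strand). Untreated libraries held 659, 757 and 765 CPM. At 4 h isotype libraries held 1445, 1625 and 1322 CPM and FcMR libraries 2273, 2350 and 2680, the highest levels of this gene in the series. At 12 h the values were 854, 916 and 1026 with isotype and 1599, 1303 and 1368 with FcMR, and at 24 h 669, 681 and 761 with isotype and 1235, 1625 and 1152 with FcMR. At each time all FcMR libraries lay above all isotype libraries, while the levels in both were lower after 4 h.

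By edgeR, Slc7a11 had a log2 fold change of 0.73 (SE 0.127, adjusted p = 0.000548) at 4 h, 0.61 (SE 0.127, adjusted p = 0.00223) at 12 h and 0.93 (SE 0.128, adjusted p = 3.26e-05) at 24 h. It passed in all 17 alternatives at each time. Untreated cells and isotype 24 h overlapped at the low end of its order. Its transcript is AT-rich (40.7% GC), and GC correction gave 0.84, 0.47 and 0.79. The gene spans 5 other annotated genes, pseudogenes and antisense RNAs among them. Of the other members, Txnrd1 overlaps 3 annotated genes, the protein-coding Eid3 among them. Gclm overlaps 2, and Nfe2l2, Keap1 and Gsr overlap 1 each. Whether reads of overlapping genes entered the estimated counts of any member was not tested, and use of strand in counting is not given in the sources used here. Slc7a11 is the gene whose window, shown above, held TGATGNAA 2 times.

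Gclc and Gclm encode the catalytic and the modifier subunit of glutamate-cysteine ligase, the first enzyme of glutathione synthesis, and they differed in pattern. Gclc (ENSMUSG00000032350.9, chromosome 9, 77754535 to 77794485, plus strand) held 96.7, 102 and 110 CPM in untreated libraries. At 4 h it was at 89.3, 109 and 97.1 CPM with isotype and at 66.1, 70.5 and 83.9 with FcMR, the lowest group of its order. At 24 h it was at 75, 81.7 and 92 CPM with isotype and at 134, 183 and 139 with FcMR, the highest. The FcMR libraries thus lay below all isotype libraries at 4 h and above all of them at 24 h.

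For Gclc the edgeR log2 fold change was −0.43 (SE 0.149, adjusted p = 0.0579) at 4 h, which did not pass, 0.1 (SE 0.147, adjusted p = 0.757) at 12 h and 0.88 (SE 0.148, adjusted p = 0.000266) at 24 h. The 24 h value passed in all 17 alternatives (0.73 to 0.97). Gclm (ENSMUSG00000028124.15, chromosome 3, 122245557 to 122270732, plus strand) held 141, 143 and 145 CPM in untreated libraries and 290 to 483 CPM in the treated ones. At 24 h the isotype libraries had 300, 340 and 381 CPM and the FcMR libraries 372, 483 and 404, with an overlap. Its FcMR effects of −0.22, −0.08 and 0.3 did not pass (edgeR adjusted p = 0.226, 0.767 and 0.086). Without FcMR 24 h replicate 1 the 24 h value was 0.39, and without isotype 24 h replicate 3 it was 0.4, and both passed (edgeR adjusted p = 0.0454 and 0.0429).

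Gsr encodes glutathione reductase, which returns oxidised glutathione to its reduced form (ENSMUSG00000031584.16, chromosome 8, 33652523 to 33698163, plus strand). Libraries held 92.7, 79.4 and 86.5 CPM untreated. At 12 h they held 135, 144 and 167 CPM with isotype and 193, 210 and 212 with FcMR, its highest group. At 24 h the values were 125, 133 and 131 with isotype and 171, 181 and 174 with FcMR. The groups were apart at both times and overlapped at 4 h. The edgeR log2 fold change was 0.12 (SE 0.086, adjusted p = 0.374), 0.46 (SE 0.086, adjusted p = 0.000843) and 0.44 (SE 0.086, adjusted p = 0.00108) at the 3 times. Under the authors' scaling factors the 12 h value was 0.39 and did not pass (edgeR adjusted p = 0.0617).

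Txnrd1 encodes the cytosolic thioredoxin reductase (ENSMUSG00000020250.10, chromosome 10, 82833951 to 82897712, plus strand). Its libraries held 772, 752 and 859 CPM untreated, and at 4 h 1301, 1177 and 1470 with isotype and 1511, 1679 and 1771 with FcMR. At 12 h they held 791, 907 and 1014 CPM with isotype and 1054, 1150 and 1187 with FcMR, and at 24 h 537, 554 and 585 and 776, 860 and 854. FcMR libraries lay above isotype libraries at each time, over a level that was lower at each later time in both. The edgeR log2 fold change was 0.33 (SE 0.101, adjusted p = 0.0303), 0.32 (SE 0.101, adjusted p = 0.0359) and 0.57 (SE 0.101, adjusted p = 0.000432). At 4 h it did not pass without FcMR replicate 2 (0.32), isotype replicate 1 (0.34) or isotype replicate 2 (0.29), with edgeR adjusted p-values of 0.0805, 0.0579 and 0.0794, nor in a fit of only the libraries compared (0.32, adjusted p = 0.157). At 12 h it did not pass without FcMR replicate 2 (0.31), FcMR replicate 3 (0.28), isotype replicate 1 (0.23) or isotype replicate 2 (0.32), with edgeR adjusted p-values of 0.0817, 0.104, 0.176 and 0.0799. Nor did it pass with GC correction (0.28, edgeR adjusted p = 0.0951), with no expression filter (0.35, adjusted p = 0.0545) or with only the libraries compared (0.33, adjusted p = 0.102). The 24 h call passed in all 17 alternatives.

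Srxn1 encodes sulfiredoxin, which repairs over-oxidised peroxiredoxins (ENSMUSG00000032802.8, chromosome 2, 152105516 to 152111376, plus strand). Untreated libraries held 448, 499 and 497 CPM. At 4 h the values were 951, 849 and 983 with isotype and 705, 815 and 885 with FcMR, and at 12 h 755, 911 and 1079 with isotype and 996, 998 and 1109 with FcMR, overlapping at both times. At 24 h isotype libraries held 514, 562 and 591 CPM and FcMR libraries 893, 1003 and 1015. The level with FcMR at 24 h was thus near that of 12 h, and the level with isotype was lower than at 12 h. The edgeR log2 fold change was −0.21 (SE 0.116, adjusted p = 0.235), 0.18 (SE 0.115, adjusted p = 0.38) and 0.8 (SE 0.116, adjusted p = 5.39e-05), the last of which passed in all 17 alternatives. Srxn1 was the gene with 2 TGANTCA matches in its window.

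All 10 log2 fold changes were above 0 at 24 h, although that of Nfe2l2 was −0.006 with the authors' factors and −0.08 after GC correction and that of Keap1 was −0.02 with limma. Summed macrophage markers at 24 h were lower with FcMR (25900 to 27940 CPM) than with isotype (31180 to 35370 CPM). Dendritic cell markers were at 2160 to 2709 and 2042 to 2221 CPM and overlapped. The 6 stromal markers were low in sum but did not overlap at any time, with FcMR at 4.47 to 5.94 and isotype at 3.82 to 4.17 CPM at 4 h, 2.96 to 3.74 and 1.91 to 2.5 CPM at 12 h, and 3.8 to 5.12 and 0.965 to 1.47 CPM at 24 h. Col1a2 and Col3a1 were at 0 in isotype 24 h and in FcMR 4 h, Col3a1 in FcMR 12 h and Dcn in isotype 4 h. The part of cell composition in the FcMR effects was not tested. Erythroid markers, which could mark haem from red cells, were at 0.0735 to 5.65 CPM in FcMR 24 h libraries. In isotype 24 h libraries they were at 0 to 0.214 CPM, with an overlap, and 3 of the 5 used (Hba-a1, Hba-a2 and Hbb-bt) were at 0 counts. At 4 h they were at 0.677 to 8.2 CPM with FcMR and 6.95 to 35.7 CPM with isotype. At 12 h they were at 1.31 to 7.49 CPM with FcMR and 0.897 to 6.88 CPM with isotype. The part of red cells in the Hmox1 levels was not tested. Neutrophil markers at 24 h overlapped between the groups, and of the 10 neutrophil genes Elane was at 0 in the FcMR libraries.

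A joint edgeR test asked whether the FcMR effect of a gene differed over the 3 times. It called Gclc, Srxn1 and Hmox1, 3 of the 10, and 11% of all genes. For 6.24% of all genes the effect was called and higher at 24 h than at 4 h, 840 genes against 644 with a lower effect, a split that was 587 and 780 with RLE factors. The adjusted p-values below are those of the joint test. Each value beside them is the effect at 24 h minus that at 4 h, which was not tested alone. This value was 1.3 on the log2 scale for Gclc (edgeR adjusted p = 0.00158), 1.02 for Srxn1 (adjusted p = 0.00154) and 1.02 for Hmox1 (adjusted p = 0.0327). Gclc and Srxn1 passed in all 29 alternatives and Hmox1 in 17 of 29. The Hmox1 call was lost on leaving out any 1 of the 3 FcMR libraries of 4 h, isotype 4 h replicate 1, FcMR 24 h replicate 1 or 3, or any of the 3 isotype libraries of 24 h. Over these its difference ran from 0.91 to 1.05 and its edgeR adjusted p from 0.0529 to 0.0739. The call was also lost with the authors' factors, with no expression filter and with only the libraries compared. Over all 29 alternatives its adjusted p reached 0.109. For Slc7a11 the change in effect was 0.19 (edgeR adjusted p = 0.491), and for Txnrd1 it was 0.24 (adjusted p = 0.408).

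Isotype-treated cells were compared with untreated cells, which gives the background on which FcMR was read. Nqo1, Gclm, Slc7a11, Srxn1, Gsr and Txnrd1 were higher at 4 h than in untreated cells, 6 of 10 genes against 35.6% of all genes (20.4% higher). At 12 h 7 were higher and Nfe2l2 was lower (41.6% of all genes, 22% higher and 19.6% lower). At 24 h 4 were higher (Nqo1, Gclm, Hmox1 and Gsr) and Nfe2l2 and Txnrd1 were lower (42.2% of all genes, 21.3% higher and 20.9% lower). Time in culture, the control protein and the run of library numbers cannot be told apart in this comparison. The isotype libraries are also the controls of the FcMR comparisons.

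Nqo1 rose most of the 10 by edgeR, with a log2 fold change of 2.61 (SE 0.129, adjusted p = 3.9e-11) at 4 h, 2.51 at 12 h and 2.13 at 24 h, the first of these a 6.11-fold difference. Gclm was higher by 1.35 (SE 0.122, adjusted p = 1.01e-07), 1.33 and 1.25, and Gsr by 0.83, 0.79 and 0.59. These 3 genes passed at each time in all 17 alternatives. Slc7a11 was higher by 1.01 at 4 h and 0.36 at 12 h and differed by −0.05 (adjusted p = 0.795) at 24 h. Srxn1 was higher by 0.95 and 0.93 and, at 24 h, differed by 0.21 (adjusted p = 0.163). Txnrd1 was higher by 0.73 at 4 h and lower by −0.51 (SE 0.101, adjusted p = 0.000559) at 24 h.

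Hmox1 was not different from untreated cells in isotype 4 h beyond the replicate spread (0.07, edgeR adjusted p = 0.801) and was higher by 0.53 at 12 h and 0.67 at 24 h (adjusted p = 0.0242 and 0.0055). Its 12 h call was lost without untreated replicate 1 (0.5), untreated replicate 2 (0.46) or isotype 12 h replicate 3 (0.48). The 12 h call of Slc7a11 was lost without untreated replicate 1 (0.29), without isotype 12 h replicate 3 (0.31) and with no expression filter (0.36, edgeR adjusted p = 0.057). Keap1 was higher at 12 h by 1.18 (SE 0.326, adjusted p = 0.00724), and its value of 0.59 at 4 h was −0.0014 without isotype 4 h replicate 3. At 4 h it passed, higher, in 2 of 17 alternatives, at edgeR adjusted p down to 1.12e-06. At 24 h its value was 0.1 (edgeR adjusted p = 0.839), and it passed, higher, in 2 of 17. The isotype 12 h libraries all have library numbers of the run with the highest GC tilt. The untreated and the isotype 24 h libraries also lie each within a run of their own group's time, and of isotype 4 h only replicate 3 does not. Time and run therefore cannot be told apart here, for Keap1 or for any other gene. Nfe2l2 was lower by −0.46 (SE 0.099, adjusted p = 0.00103) at 12 h and by −0.56 (SE 0.099, adjusted p = 0.000186) at 24 h. Gclc did not pass at any of the times. At 24 h, where its isotype libraries lay below all untreated ones, its value was −0.31 (SE 0.148, edgeR adjusted p = 0.0982), and it passed with GC correction (−0.4, adjusted p = 0.0303) and with only the libraries compared (−0.27, adjusted p = 0.0252). Txnrd1, which did not pass at 12 h, passed without isotype 12 h replicate 1 (0.3, edgeR adjusted p = 0.0235). Over the same times the summed neutrophil markers went from 1412 to 1641 CPM in untreated cells to 1019 to 1362, 297 to 385 and 186 to 221 CPM with isotype, and their part in these differences was not tested.

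Across the 7 group means of log2 CPM, members fell into different patterns, described here without a test since the points share libraries. Nqo1 and Gclm were most alike (r = 0.96), followed by Slc7a11 and Txnrd1 (r = 0.903) and Srxn1 and Gsr (r = 0.9). Gclc and Gclm, the subunits of one enzyme, had r = 0.166, and Hmox1 and Slc7a11 had r = 0.0305. Nfe2l2 and Hmox1 ran opposite, at r = −0.815. Among genes averaging 1 or more on the log2 CPM scale, those most like Hmox1 were Glis3 (r = 0.993), Bckdhb (0.99) and Stat4 (0.989). Stat4 went from 21.9 CPM in untreated cells to 97.1 CPM in FcMR 24 h and 40.3 CPM in isotype 24 h. The genes most like Slc7a11 were P4ha1 (0.992), Ptgs2 (0.991) and A530040E14Rik (0.991). Ptgs2, which encodes the inducible cyclooxygenase, was at 9.2 CPM untreated, 2399 in FcMR 4 h and 264 in isotype 4 h. Those most like Nqo1 were Acss2 (0.992), Atm (0.992) and Serinc5 (0.988), and those most like Srxn1 were Apip (0.985), Cdkn2b (0.976) and D130040H23Rik (0.972). With 7 points and candidates drawn from 13468 genes, high values of r are easily reached.

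Further genes of the pathway were followed in 6 lists, of which 63 of 66 genes were tested: NRF2 regulators, glutathione use and export, thioredoxin and peroxiredoxin, NADPH supply, haem and iron handling, and detoxification. With FcMR against isotype 7 were higher and 5 lower at 4 h, 9 and 5 at 12 h, and 21 and 6 at 24 h. Of all genes tested, 8.62% were higher and 9.13% lower at 4 h, 8.61 and 7.49% at 12 h, and 11.4 and 9.44% at 24 h. The lists' median log2 fold changes were −0.02, −0.03 and 0.159. Over 17 alternatives the 24 h count ran from 17 to 27 higher and 4 to 12 lower, and the 4 h count from 0 to 16 higher and 2 to 9 lower. In the glutathione list 8 of 14 genes were higher at 24 h and none was lower by edgeR (6 to 10 higher and 0 to 1 lower over the alternatives), with a median log2 fold change of 0.462, where 11.4% of all genes were higher. These 8 were Glrx, Gstm2, Abcc4, Gsta3, Abcc1, Mgst1, Gstm1 and Mgst2, and glutathione transferases have close copies between which estimated counts may be shared.

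**Figure D4:**
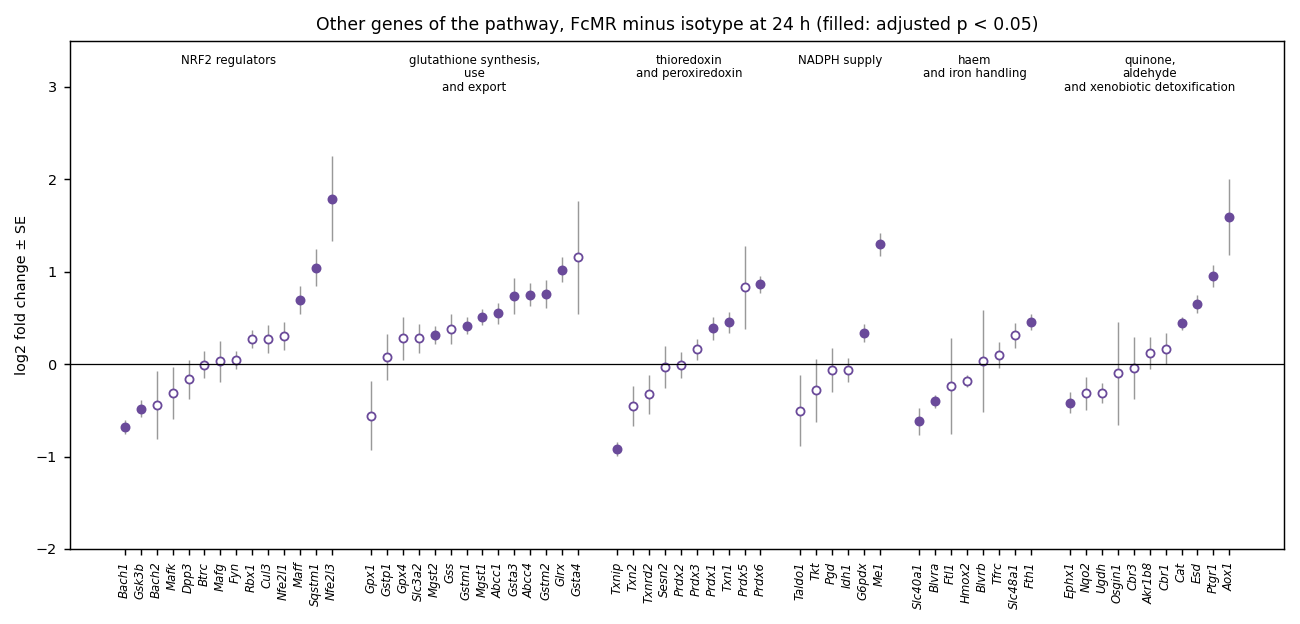
Log2 fold change with its standard error, FcMR minus isotype at 24 h, for the 63 pathway genes tested outside the 10, in 6 lists and ordered by value within each. Filled points have an edgeR adjusted p under 0.05. In the glutathione list 8 filled points lie above 0 and none below, and Bach1 is the lowest of the regulators.

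Among the regulators, Bach1, the repressor that competes with NRF2, was lower with FcMR at each time. Its libraries held 86.9, 97.8 and 91.6 CPM with isotype and 74, 67.9 and 66.3 with FcMR at 4 h. At 12 h they held 92, 87.9 and 93.8 CPM and 50.2, 53.9 and 57.1, and at 24 h 89.5, 83.4 and 86.6 and 48.2, 57.5 and 56.2. The groups did not overlap at any time, and untreated libraries were at 108 to 110 CPM. The log2 fold changes of Bach1 were −0.41 (SE 0.078, edgeR adjusted p = 0.00121), −0.76 (SE 0.077, adjusted p = 1.46e-06) and −0.68 (SE 0.078, adjusted p = 3.98e-06). At 12 and 24 h it passed in all 17 alternatives and at 4 h in 15.

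Maff, a small MAF partner of NRF2, was higher by 0.71 (SE 0.141) at 4 h, 0.78 (SE 0.144) at 12 h and 0.7 (SE 0.151) at 24 h. Its level was lower at each later time in both arms. With FcMR and isotype it was at 105 ± 8.42 and 64.4 ± 15.1 CPM (n = 3) at 4 h. At 12 h it was at 31.7 ± 1.7 and 18.4 ± 2.4 CPM, and at 24 h at 22.3 ± 3.08 and 13.7 ± 0.637 CPM. Mafk, a further small MAF, was higher by 0.85 (SE 0.271) at 4 h, a call lost in 5 of 17 alternatives. The Mafk values of −0.21 at 12 h and −0.31 at 24 h did not pass. Sqstm1, whose product p62 binds KEAP1, was higher by 0.7 (SE 0.198) at 4 h, a call lost in 4 of 17 alternatives, and by 1.04 (SE 0.2) at 24 h, when it stood at 1035 ± 167 CPM with FcMR and 503 ± 19.6 with isotype. Nfe2l3, a relative of Nfe2l2, was higher by 1.79 (SE 0.463) at 24 h at a low level of 2.39 against 0.68 CPM. Gsk3b, a kinase that marks NRF2 for degradation, was lower by −0.48 (SE 0.091) at 24 h.

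Of genes around cystine and glutathione, Slc3a2, the heavy chain that pairs with the product of Slc7a11, was higher by 0.66 (SE 0.154) at 4 h. Glrx, a glutaredoxin, was higher by 0.82 (SE 0.132) at 12 h, and Abcc4, an export pump, by 0.62 (SE 0.123). Mgst2 was lower by −0.52 (SE 0.111) at 12 h. Me1, the malic enzyme that supplies NADPH, was higher by 1.29 (SE 0.12) at 24 h, at 40.1 ± 5.69 against 16.4 ± 0.766 CPM, and Idh1, another source of NADPH, was lower by −0.73 (SE 0.128) at 4 h. Txnip, which binds and inhibits thioredoxin, was lower by −0.22 (SE 0.073) at 4 h, −0.67 (SE 0.073) at 12 h and −0.92 (SE 0.073) at 24 h.

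Among iron genes, Slc40a1, the iron exporter ferroportin, was lower by −0.88 (SE 0.145) at 4 h and −0.62 (SE 0.143) at 24 h, and Tfrc, the transferrin receptor, by −0.57 (SE 0.14) at 4 h, a call lost in 4 of 17 alternatives. Aox1, an aldehyde oxidase, was higher by 1.36 (SE 0.41) at 12 h and 1.6 (SE 0.411) at 24 h, at low levels of 1.64 ± 0.57 and 3.42 ± 0.874 CPM (n = 3) with FcMR. Its 12 h call was lost in 6 of 17 alternatives. Ephx1, an epoxide hydrolase, was lower by −0.89 (SE 0.117) at 12 h. Each of these pathway differences had an edgeR adjusted p under 0.05, other than those of Mafk at 12 and 24 h. With isotype against untreated cells, 21 of the 63 were higher and 10 lower at 4 h, 30 and 12 at 12 h, and 32 and 10 at 24 h. Of all genes tested, 20.4% were higher and 15.2% lower at 4 h, 22 and 19.6% at 12 h, and 21.3 and 20.9% at 24 h.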

How the data were processed

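Per the submitters' processing notes, base calls were handled with CASAVA 1.8.2, reads quantified with kallisto 0.44.0 and DESeq2 used, with builds mm10 and GRCm38 named. A TruSeq kit and single-end reads of 75 bases were used, per the labels' protocols. The deposited gene table holds estimated counts as whole numbers, which were used as they stand, although the plan had assumed plain counts. The second table, which the authors deposited as normalized values on a linear signal scale, served only as an alternative scaling. Gene IDs were matched without version to GENCODE M21 (GRCm38), where 23187 of 23250 had a symbol and 21231 also matched with version.

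All 21 libraries were fitted once with edgeR 4.0.16 (quasi-likelihood, R 4.3.3), a coefficient per group, TMM scaling and filterByExpr at a minimum of 10 counts. Calls are at a p under 0.05 after Benjamini-Hochberg adjustment. Groups came from the titles. No replicate pair agreed within sampling noise (lowest chi-square over its degrees of freedom 2.96), so libraries were not merged. Limits from 3 counts cover counting error only. Tested on simulated data for these 13468 genes, the fit recovered 49, 38 and 46% of genes changed 1.5-fold and 81, 83 and 88% of those changed 2-fold at 4, 12 and 24 h. The changed genes, 100 at each fold, were drawn only from genes above a set level, and all others were left unchanged. Far more genes were called in the real comparisons, so these rates need not hold there or for genes of low level. The 10 genes, the pathway and marker lists and the rules were chosen with earlier results of these data known. All 10 are named, and from the pathway lists, at each time, the called genes with the 4 largest positive and 4 largest negative fold changes. Further times are given for Maff, Mafk and Txnip. A time left out for a pathway gene does not mean that the gene did not pass then. For Hmox1, Slc7a11, Srxn1 and Nqo1 the 3 genes of highest Pearson correlation over group means are named, with a prior count of 2. The alternatives were RLE and the authors' factors, other filters, DESeq2 1.42.0, limma 3.58.1 with voom weights, a replicate block, GC correction (lowess, span 0.3) and leaving libraries out. Replicate numbers come from the titles, which do not say that equal numbers share a mouse or a day. A marker of the erythroid list is not reported here and was left out of its sum.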

Additional observations from a re-analysis of the deposited data

Results flagged for a closer look

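For 3 of the 10 genes the effect of FcMR differed between the times by the joint edgeR test. The adjusted p of that test is given beside the 24 h minus 4 h difference, which was not tested alone. For Gclc the log2 effect at 24 h exceeded that at 4 h by 1.303, from −0.43 to 0.88 (adjusted p = 0.00158). For Srxn1 the difference was 1.016, from −0.21 to 0.8 (adjusted p = 0.00154). For Hmox1 it was 1.024, from 0.07 to 1.09 (adjusted p = 0.0327), with an adjusted p between 0.000318 and 0.109 over 29 alternatives, 12 of which did not pass. The negative 4 h values of Gclc and Srxn1 did not pass on their own in the main fit. Gclc passed, lower, in 2 of 17 alternatives at 4 h and Srxn1 in 1.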

How the results depend on the processing

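Every call of FcMR against isotype among the 10 genes kept its direction in all 17 alternatives. Of 1310 values recomputed for the 10 genes, 1226 kept direction and side of the threshold, 28 passed newly, 33 no longer passed and 23 changed sign, and no called gene was among the 23 sign changes. Pathway genes were run under the same alternatives after the data had been seen, each at the times when the naming rule picked it. Of these 408 values, 383 still passed, 25 did not and none changed sign. Of 70 group levels, 67 moved by less than 1 SD with RLE factors.

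Genes called at 4 h numbered 2390, and 3687 with GC correction, 3831 with GC correction and replicate block, 3898 without the 2 libraries out of order, 868 with only the libraries compared, and 1589 to 3151 on leaving out each library. Of the 10 genes, 2 were called there, both higher. This became 4 with GC correction (3 higher, 1 lower), 6 with GC correction and block (3 higher, 3 lower), 4 without the 2 libraries out of order (3 higher, 1 lower), 1 with only the libraries compared and 1 to 3 on leaving out each library. At 12 h 2169 genes were called, 3305 with GC correction and 3477 with the block as well, and of the 10 genes 4, or 2 to 4 on leaving out each library. For isotype against untreated at 4 h, 4792 genes were called and 2881 with only the libraries compared, a fit that gave more calls at 12 h (7191, from 5602). The joint test called 1484 genes, and 925 with no filter, 2809 with GC correction, 3008 with the block as well, 2616 without the 2 libraries out of order and 973 to 2294 on leaving out each library. Of the 10 genes it called 3, and 2 with the authors' factors, with no filter or with only the libraries compared, and 2 to 3 on leaving out each library. The cause of these shifts was not tested.

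Same-numbered libraries correlated at 0.0271, −0.166 and −0.0735 at 4 h, 0.199, 0.0457 and 0.073 at 12 h and 0.0357, −0.000824 and 0.00651 at 24 h in their deviations from the FcMR and isotype means, so the numbers were not taken as pairs. With the replicate block 3 of the 10 genes were called at 4 h (Gclc added, lower, at −0.43), 4 at 12 h and 7 at 24 h (Gclm added at 0.31), and 4 in the joint test (Gclm added). The block called 2541, 2290 and 2911 genes at 4, 12 and 24 h, 5072, 5753 and 5849 for isotype against untreated and 1620 jointly. Of the 10 genes, 6, 8 and 7 were called for isotype against untreated, with Gclc lower at 24 h (−0.32, edgeR adjusted p = 0.0349). With GC correction and block it was −0.4 (adjusted p = 0.000924), and Nfe2l2 for FcMR against isotype at 4 h −0.16 (adjusted p = 0.0463).

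Values that changed sign, each without a call before, were these. For FcMR against isotype, Nfe2l2 at 24 h was −0.0061 with the authors' factors, −0.084 with GC correction and −0.084 with the block as well, and Keap1 at 24 h was −0.021 with limma. For isotype against untreated at 4 h, Hmox1 was −0.028 with no filter and −0.19 without the 2 libraries out of order, and Nfe2l2 was −0.0201 with GC correction and −0.0203 with the block as well. The joint value of Slc7a11 was −0.0502 with GC correction and −0.054 with the block as well, where it passed (edgeR adjusted p = 0.00559). On leaving out each library, values of FcMR against isotype ran from −0.0825 to 0.331 for Hmox1 at 4 h. At 12 h they ran from −0.148 to 0.0184 for Nfe2l2, −0.0219 to 0.433 for Keap1, −0.191 to 0.0619 for Gclm and −0.0304 to 0.272 for Gclc, and at 24 h from −0.0499 to 0.112 for Nfe2l2 and −0.161 to 0.327 for Keap1. For isotype against untreated they ran from −0.00136 to 0.83 for Keap1 and −0.192 to 0.223 for Hmox1 at 4 h, −0.211 to 0.0918 for Gclc at 12 h and −0.112 to 0.0219 for Slc7a11 at 24 h. The cause of these sign changes was not tested. Library depth limits Keap1 and Nqo1 most, with 149 and 266 counts at the lowest.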
